A study of Sus scrofa with 8 samples.

Results

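The 39 genes described here encode enzymes that remove reactive oxygen species, the thioredoxin and glutaredoxin proteins that reduce oxidised cysteines, the transcription factor and sensor that control many of them, and 2 subunits of an enzyme that makes oxidants. They were chosen by name and not by a cutoff on a measured value, but with earlier results of these data known. Of the 39, 35 matched the gene name of a model in the authors' deposited table and 2 (TXN, GLRX2) matched its one-to-one human gene name, so 37 were found among 31908 gene models. GLRX and MSRA were not matched. Counts were high enough to test 36 of the 37.

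Superoxide dismutases turn superoxide into hydrogen peroxide, which catalase, peroxiredoxins and glutathione peroxidases then reduce. Peroxiredoxins are recharged by thioredoxin and thioredoxin reductase, glutathione peroxidases by glutathione, and both routes draw on NADPH. NRF2 (gene NFE2L2) is held in check by KEAP1 and, when released, switches on many of these genes. In heart muscle, where mitochondria are dense, much superoxide arises in the respiratory chain.

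Bulk RNA came from the free wall of the right ventricle in 8 pigs of the breed Yorkshire Cross and was sequenced as 1 library for each animal. In the banded group, 4 castrated males had the main pulmonary artery constricted with a tape, which loads the right ventricle with pressure. They were 4.5 ± 0.6 weeks old and weighed 6.4 ± 1.3 kg at surgery, and the right ventricle then reached a systolic pressure of about 30 to 40 mmHg. The control group was 4 pigs of like age and weight, housed for 8 weeks, with the treatment given as none. The labels state the sex of the banded animals only, name no sham operation and give no time from banding to tissue collection, so effects of these cannot be told apart from banding.

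Depth was 31033679 to 34183338 counts per library, and abundance is given as CPM, counts scaled to a common library size. For a gene with 0 counts in a library the upper limit is 0.0878 to 0.0967 CPM, or 3 counts of the total, which covers counting error only. The mitochondrial genome took 30.5% of counts in banded 3 and 35.3% to 43.9% in the other libraries. The library of banded 3 stood apart, with the highest value of the 8 for 20.0% of the 13697 genes tested and the lowest for 20.8%. In the other 7 libraries these shares were 8.37% to 15.9% and 9.40% to 15.7%. The mean normalised signal in the authors' deposited table equalled the mean of the 7 libraries without banded 3 in 100% of 12959 genes (within 0.1%), against 1.74% for the mean of all 8. Values from that table therefore leave banded 3 out, while all others below use the 8 libraries unless stated.

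None of the 36 tested genes was called higher or lower in the banded ventricle at an adjusted p under 0.05 (edgeR quasi-likelihood test). Over all 13697 genes the same test called 954, or 6.97%, of which 475 were higher (3.47%) and 479 lower (3.5%). With counts scaled by library size alone, without TMM factors, it called 303 higher and 508 lower. At an unadjusted p under 0.05, 5 of the 36 genes were higher (SOD1, PRDX2, PRDX4, SRXN1 and GSTO1) and 0 were lower. These are 13.9% and 0%, against 12.1% and 11.7% of all genes. The smallest adjusted p among the members was 0.0979, for PRDX2. DESeq2 called 0 of 35 members with all 8 libraries, against 10.4% of all genes, and gave SRXN1 no p-value. Without banded 3 it called 0 of 36, against 9.82%. Either way 4 members were higher and 0 lower at an unadjusted p under 0.05. With all 8 libraries, 22.8% of all genes were under 0.05 in DESeq2, in either direction. This share was not split by direction and was not taken without banded 3. Limma-voom called 1 of 36, PRDX2, with an adjusted p of 0.0493, against 9.79% of all genes. At an unadjusted p under 0.05 it had 7 members higher and 0 lower, against 26.1% of all genes in either direction. The authors' deposited table called 0 of 36, against 10.6% of its 14099 genes with an adjusted p. At an unadjusted p under 0.05 it had 5 of 36 (13.9%), against 23.0% of those genes.

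Most differences were small. The log2 fold change of banded over control was positive for 22 of the 36 genes and negative for 14, with a median of 0.10 against 0.02 for all genes. Scaling by library size alone turned these into 18 and 18, with a median of -0.00062 against -0.09 for all genes. The sign ± after a log2 fold change gives its SE throughout, with 4 animals in each group. The interquartile range of the 36 values was -0.09 to 0.36, against -0.25 to 0.28 for all genes, and its extremes were -0.49 (GSTM3) and 1.67 (SRXN1). The difference exceeded 1.5-fold for 2 of the 36 (5.56%), SRXN1 and GPX1, against 20.9% of all genes. For 32 of the 36 genes the 95% interval lay within a 2-fold change in either direction (88.9%, against 65.0% of all genes). For 19 of the 36 it lay within 1.5-fold, as it did for 4356 of all 13697 genes. The exceptions to 2-fold were SRXN1, GPX1, GSTM3 and SELENOW. The median SE was 0.17 for the members against 0.21 for all genes, and these shares were not matched for count level. CPM values of the groups did not overlap for 1 member, PRDX4, which was higher in every banded animal. Over all genes this held for 7.66% in the higher direction and 8.2% in the lower one.

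**Figure D1:**
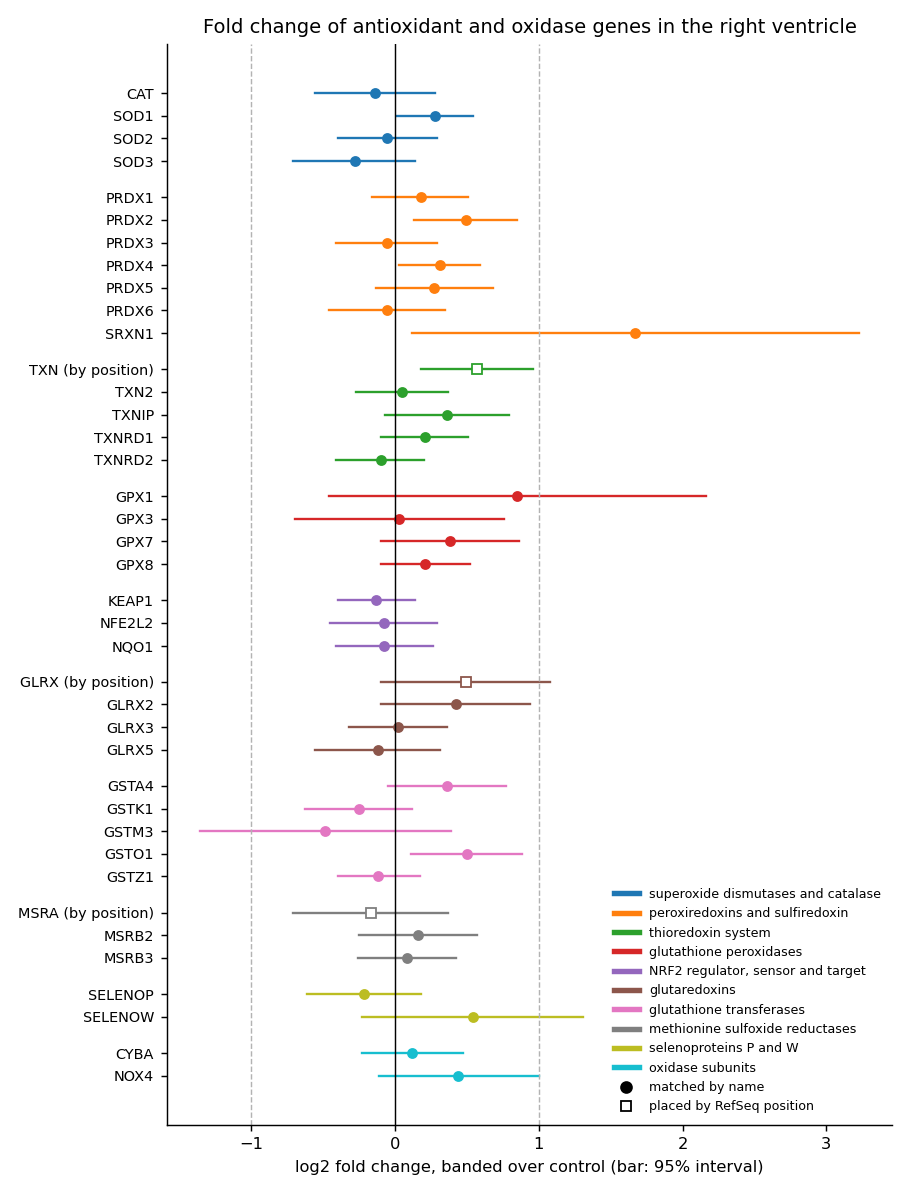
Log2 fold change of banded over control for the 36 tested members and 3 models placed by position (x axis), with bars for the 95% interval and colours for the gene's role (dashed lines, a 2-fold change). Most points lie near 0, SRXN1 at 1.67 and GPX1 at 0.85 have the widest bars to the right, and GSTM3 at -0.49 lies farthest left.

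**Figure D2:**
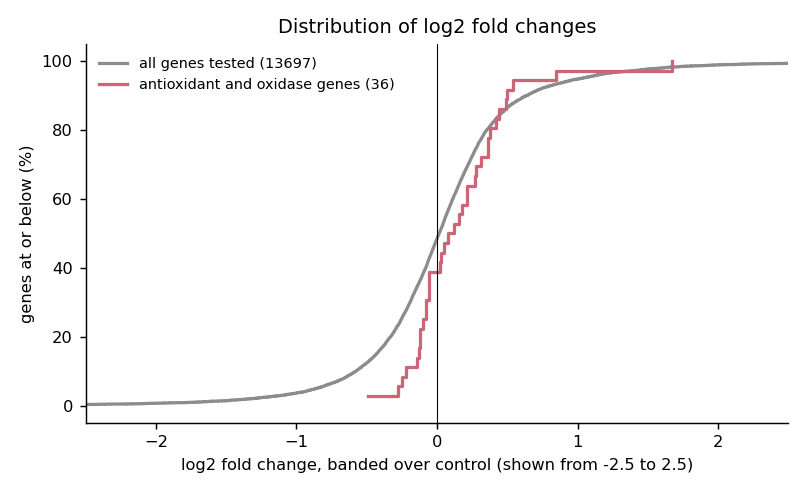
Cumulative share of genes (y axis, %) at or below each log2 fold change of banded over control (x axis, shown from -2.5 to 2.5) for the 36 members and for all 13697 genes tested. The curve of the members is steeper, with a median absolute log2 fold change of 0.21 against 0.27 for all genes.

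Levels per length spanned more than 2 orders of magnitude. As CPM per kilobase of exon (RPKM, mean over 8 animals), TXNIP stood first at 290.5, followed by SELENOP at 141, PRDX3 at 120.3, GPX3 at 99.8, GPX1 at 70.4 and PRDX6 at 67.2. PRDX2 (56.7) and SOD2 (56.6) stood side by side, and their ranges over animals overlapped. SOD1 had 47.1 RPKM and MSRB3 41.7 RPKM. GSTM3 (1.64), GSTA4 (1.08) and NOX4 (1.01) were lowest of the 36. PRDX4 had 2.44 RPKM over a model of 9012 exon bases, so its place depends on the annotated length.

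**Figure D3:**
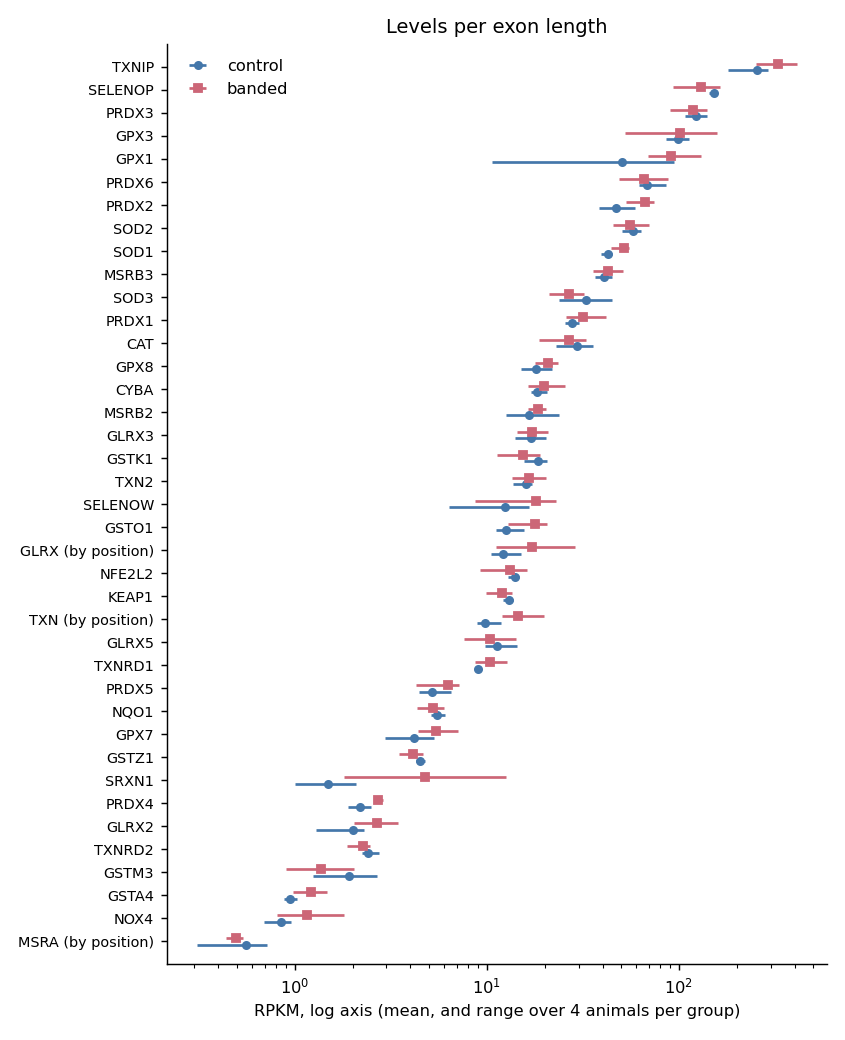
Level of each member as RPKM on a log axis, with the mean of 4 control and 4 banded animals (points) and the range over animals (bars), ordered by the mean of all 8. TXNIP is highest at 290.5 RPKM, and the ranges of the groups overlap for all but PRDX4 and the TXN model placed by position.

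Of the 3 superoxide dismutases and catalase, SOD1, the cytosolic copper-zinc enzyme, had an unadjusted p of 0.0455 and did not pass after adjustment. SOD1 had 137, 119, 133 and 130.3 CPM in controls 1 to 4 and 167, 135, 166 and 161 CPM in banded 1 to 4. Banded 2 lay among the controls and the other 3 banded animals above all of them, for a log2 fold change of 0.28 ± 0.12 (SE, adjusted p = 0.200) and a 95% interval of 0.01 to 0.54. SOD2, the manganese enzyme of the mitochondrial matrix and the highest of the 4 per length, had 234, 279, 263 and 296 CPM in controls 1 to 4 and 254, 241, 209.6 and 326 CPM in banded 1 to 4. Banded 4 was the highest and banded 3 the lowest of the 8 libraries, for a log2 fold change of -0.06 ± 0.16 (SE, adjusted p = 0.869). SOD3, the secreted enzyme, had a control mean of 55.9 ± 15.4 CPM and a banded mean of 46.0 ± 7.79 CPM (SD, n = 4), a log2 fold change of -0.28 ± 0.20 (SE, adjusted p = 0.415). CAT, the peroxisomal catalase, had a control mean of 138 ± 27.5 CPM and a banded mean of 125 ± 27.3 CPM, a log2 fold change of -0.14 ± 0.19 (SE, adjusted p = 0.714). For both of these the groups overlapped.

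Peroxiredoxins use a reactive cysteine to reduce peroxides, and sulfiredoxin (SRXN1) restores them after over-oxidation. Of these 7 genes 5 had a positive log2 fold change, with a median of 0.27. PRDX2 (chromosome 2, 66207796 to 66213567, build Sscrofa11.1), abundant in cytosol and in red cells, had 150.3, 129.8, 118 and 182 CPM in controls 1 to 4 and 214, 164, 228 and 211 CPM in banded 1 to 4. Banded 2 lay below control 4, and the other 3 banded animals lay above every control. This was a log2 fold change of 0.49 ± 0.16 (SE, adjusted p = 0.0979), with an interval of 0.13 to 0.85. The adjusted p was 0.254 without control 3 and 0.0475 without control 4. Summed red cell markers were 85.1 to 330 CPM in controls and 140.1 to 1798 CPM in banded animals. All 6 tested red cell markers had positive log2 fold changes, with a median of 1.32, and 0 had an unadjusted p under 0.05. The highest sum was in banded 4, where PRDX2 was lower than in banded 1 and 3. In bulk tissue, more cells of a type and more RNA per cell cannot be told apart.

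PRDX4, the peroxiredoxin of the endoplasmic reticulum, had 20.7, 18.3, 17.1 and 22.5 CPM in controls 1 to 4 and 23.6, 23.5, 24.3 and 26.0 CPM in banded 1 to 4. Every banded value was above every control value, by little between control 4 and banded 2. This gave a log2 fold change of 0.31 ± 0.13 (SE, adjusted p = 0.162) and an interval of 0.03 to 0.59. SRXN1 (chromosome 17, 34582440 to 34589308) had 3.49, 2.49, 3.62 and 5.19 CPM in controls 1 to 4 and 4.48, 6.17, 31.3 and 5.18 CPM in banded 1 to 4. Banded 3 stood far above the other 7 libraries, and banded 1 and 4 lay below control 4. With all 8 libraries the log2 fold change was 1.67 ± 0.67 (adjusted p = 0.181), and without banded 3 it was 0.52 (adjusted p = 0.273). The authors' deposited table gives -0.52 for control over banded, with an adjusted p of 0.288.

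PRDX3, the mitochondrial peroxiredoxin and the highest of this set per length, had 204, 171, 182 and 222 CPM in controls 1 to 4 and 178, 142, 205 and 223 CPM in banded 1 to 4. The banded range contained all 4 controls, with a log2 fold change of -0.06 ± 0.16 (adjusted p = 0.86). Cytosolic PRDX1 had a control mean of 56.4 ± 3.97 CPM and a banded mean of 63.8 ± 14.0 CPM, a log2 fold change of 0.18 ± 0.15 (SE, adjusted p = 0.522). PRDX6, which uses glutathione in place of thioredoxin, had a control mean of 98.8 ± 16.8 CPM and a banded mean of 94.8 ± 23.6 CPM, a log2 fold change of -0.06 ± 0.18 (SE, adjusted p = 0.881). PRDX5 had a control mean of 23.6 ± 4.14 CPM and a banded mean of 28.5 ± 6.16 CPM, a log2 fold change of 0.27 ± 0.18 (SE, adjusted p = 0.400), and its model shares exon sequence on the same strand with ESRRA. Without banded 3, where PRDX5 was lowest, its adjusted p was 0.107. The authors' deposited table gives PRDX5 the smallest adjusted p of the members, 0.0963.

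**Figure D4:**
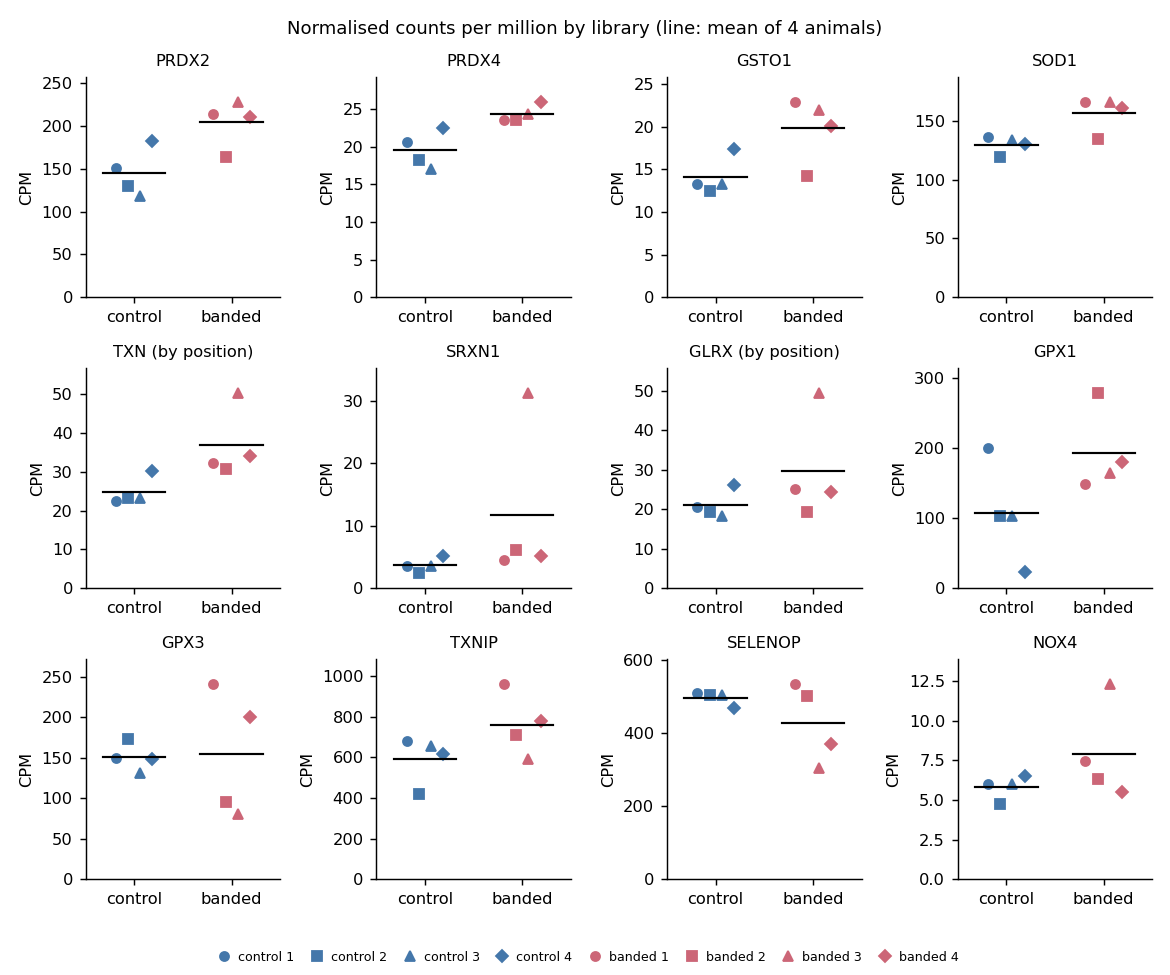
Normalised CPM (y axes, from 0) of 12 members in each library, control in blue and banded in red, with a line at the mean of 4 animals and 1 marker shape for each animal. PRDX2, PRDX4, GSTO1 and SOD1 have higher means in the banded group, and of these only PRDX4 has no overlap. SRXN1 (31.3 CPM), GLRX (49.5 CPM) and NOX4 (12.3 CPM) are highest in banded 3.

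Thioredoxin reduces peroxiredoxins and other proteins, its reductases recharge it, and TXNIP binds and inhibits it. The 4 tested genes of this system had a median log2 fold change of 0.13, or 0.02 with library size scaling alone. TXNIP, which is also induced by glucose, had 679, 422, 659 and 616 CPM in controls 1 to 4 and 964, 708, 590.1 and 781 CPM in banded 1 to 4. Banded 1, 2 and 4 were above all controls and banded 3 below 3 of them, and its log2 fold change came to 0.36 ± 0.20 (adjusted p = 0.300). TXNRD1, the cytosolic reductase, had 50.8, 50.6, 49.6 and 53.4 CPM in controls 1 to 4 and 49.5, 50.7, 72.3 and 63.8 CPM in banded 1 to 4. Banded 3 and 4 lay above the narrow range of the other 6 libraries, with a log2 fold change of 0.21 ± 0.14 (adjusted p = 0.397). The mitochondrial pair showed smaller differences. TXN2 had a control mean of 32.3 ± 3.27 CPM and a banded mean of 33.3 ± 5.85 CPM, a log2 fold change of 0.05 ± 0.15 (SE, adjusted p = 0.881), and shares exon sequence on the same strand with an unnamed model. TXNRD2 had a control mean of 16.3 ± 1.48 CPM and a banded mean of 15.2 ± 1.76 CPM, a log2 fold change of -0.10 ± 0.14 (SE, adjusted p = 0.711).

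For TXN, cytosolic thioredoxin, the model found by name (chromosome 4, 108794826 to 108796015, 300 exon bases) had 0 counts in every library. Its protein identity with human thioredoxin is 59.6% in the authors' deposited table. RefSeq places TXN of the same build on chromosome 1, where a model without a name in the table spans 251263175 to 251277988 on the minus strand. That model had 22.6, 23.1, 23.4 and 30.3 CPM in controls 1 to 4 and 32.2, 30.7, 50.5 and 34.1 CPM in banded 1 to 4. Every banded value exceeded every control value, with banded 3 highest. That was a log2 fold change of 0.57 ± 0.18 (SE, adjusted p = 0.0765), and without banded 3 it was 0.38 (adjusted p = 0.122). DESeq2 gave an adjusted p of 0.0468 and limma-voom 0.0452 with all 8 libraries, while DESeq2 without banded 3 gave 0.141. The call thus depended on the test. In DESeq2 it was lost without banded 3, the only library left out there, so other libraries cannot be compared. In edgeR the adjusted p was 0.191 to 0.195 without control 1, 2 or 3.

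All 4 glutathione peroxidases of the set had positive log2 fold changes, with a median of 0.29, except that GPX3 turned to -0.09 with library size scaling alone. None was called. GPX1 (chromosome 13, 31914932 to 31917335), the cytosolic and mitochondrial selenoenzyme, had 199.9, 103, 103 and 22.7 CPM in controls 1 to 4 and 148, 279, 165 and 180.3 CPM in banded 1 to 4. The controls spread widely, from the lowest of the 8 libraries in control 4 to the second highest in control 1. The log2 fold change was 0.85 ± 0.56 (adjusted p = 0.411), with an interval of -0.46 to 2.16, and ranged from 0.52 without control 4 to 1.34 without control 1. GPX3, the plasma form and the highest of the 4 per length, had 149.9, 173, 131 and 149 CPM in controls 1 to 4 and 241, 95.7, 79.9 and 199.6 CPM in banded 1 to 4. Controls lay close together (coefficient of variation 11.6%), while banded 1 and 4 were above and banded 2 and 3 below all of them (51.1%). The group means were nearly equal, with a log2 fold change of 0.03 ± 0.33 (adjusted p = 0.963). Summed adipocyte markers were 276 to 340 CPM in controls and 709.7, 152, 141 and 248 CPM in banded 1 to 4. They were highest in banded 1 and lowest in banded 2 and 3, as GPX3 was, but in banded 4 they lay below all controls where GPX3 lay above. Their part in the spread of GPX3 was not tested. GPX7 and GPX8, which act in the endoplasmic reticulum, had log2 fold changes of 0.38 ± 0.22 (adjusted p = 0.321) and 0.21 ± 0.14 (adjusted p = 0.408).

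The regulator, its sensor and a classical target showed no difference beyond the spread. NFE2L2, which encodes NRF2, had 53.6, 54.5, 49.4 and 56.2 CPM in controls 1 to 4 and 61.4, 58.8, 35.0 and 46.9 CPM in banded 1 to 4. Banded 1 and 2 lay above all controls and banded 3 and 4 below all of them, for a log2 fold change of -0.08 ± 0.17 (SE, adjusted p = 0.821) and an interval of -0.45 to 0.29. KEAP1 had 53.1, 59.8, 57.5 and 57.7 CPM in controls 1 to 4 and 52.8, 54.1, 43.1 and 58.7 CPM in banded 1 to 4. Banded 1 and 3 lay below all controls and banded 2 and 4 among them, for a log2 fold change of -0.13 ± 0.12 (SE, adjusted p = 0.574). Its model shares exon sequence on the same strand with S1PR5. NQO1, a quinone reductase and NRF2 target, had 11.6, 9.80, 10.6 and 10.1 CPM in controls 1 to 4 and 8.27, 9.61, 10.5 and 11.4 CPM in banded 1 to 4. Control values sat inside the banded range except for control 1, and the log2 fold change was -0.08 ± 0.15 (adjusted p = 0.812), with an interval of -0.41 to 0.26. These are RNA levels, and NRF2 is mainly controlled through its protein.

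Glutaredoxins remove glutathione from proteins, and GLRX3 and GLRX5 handle iron-sulfur clusters. GLRX3, the highest per length of the 3 matched genes, had 61.3, 52.6, 47.6 and 69.6 CPM in controls 1 to 4 and 59.8, 48.9, 70.5 and 54.9 CPM in banded 1 to 4. The groups covered nearly the same range, with a log2 fold change of 0.02 ± 0.16 (adjusted p = 0.957). GLRX2, largely mitochondrial, had a control mean of 5.36 ± 1.29 CPM and a banded mean of 7.16 ± 1.57 CPM, a log2 fold change of 0.42 ± 0.24 (SE, adjusted p = 0.319). Mitochondrial GLRX5 had a control mean of 45.3 ± 8.55 CPM and a banded mean of 41.7 ± 11.7 CPM, a log2 fold change of -0.12 ± 0.20 (SE, adjusted p = 0.763). RefSeq places GLRX on chromosome 2, and the model there (102425580 to 102437858, minus strand) had 20.5, 19.4, 18.2 and 26.2 CPM in controls 1 to 4 and 25.2, 19.3, 49.5 and 24.3 CPM in banded 1 to 4. Banded 3 stood above the rest, and the other 3 banded animals overlapped the controls. The log2 fold change was 0.49 ± 0.27 (adjusted p = 0.300) with all 8 libraries and 0.12 (adjusted p = 0.700) without banded 3.

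Glutathione transferases attach glutathione to reactive compounds. GSTO1, which also reduces mixed disulfides, had 13.2, 12.4, 13.2 and 17.4 CPM in controls 1 to 4 and 23.0, 14.3, 21.9 and 20.1 CPM in banded 1 to 4. Banded 1, 3 and 4 were above every control, and banded 2 was below control 4. It had a log2 fold change of 0.50 ± 0.18 (SE, adjusted p = 0.118), and the adjusted p was 0.0492 without banded 2. GSTK1, a mitochondrial and peroxisomal form and the highest of the 5 per length, had 44.4, 43.0, 36.4 and 48.2 CPM in controls 1 to 4 and 44.3, 31.4, 26.6 and 41.9 CPM in banded 1 to 4. Banded 2 and 3 lay below all controls and banded 4 below 3 of them, with a log2 fold change of -0.25 ± 0.17 (adjusted p = 0.405). The remaining log2 fold changes were 0.36 ± 0.19 (adjusted p = 0.272) for GSTA4, -0.49 ± 0.40 (adjusted p = 0.502) for GSTM3 and -0.12 ± 0.13 (adjusted p = 0.637) for GSTZ1. The GSTA4 model shares exon sequence on the same strand with an unnamed model. GSTM3 was scarce, with a control mean of 1.55 ± 0.531 CPM and a banded mean of 1.10 ± 0.399 CPM, and its interval of -1.36 to 0.39 was the widest of the 5.

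Methionine sulfoxide reductases repair oxidised methionine. MSRB3 had 249.9, 252, 205 and 205 CPM in controls 1 to 4 and 213, 202, 262 and 289 CPM in banded 1 to 4. Banded 3 and 4 were the highest of the 8 libraries while banded 1 lay within the control range and banded 2 just below it, with a log2 fold change of 0.08 ± 0.15 (adjusted p = 0.795). Mitochondrial MSRB2 had a control mean of 24.6 ± 7.42 CPM and a banded mean of 27.5 ± 2.44 CPM, a log2 fold change of 0.16 ± 0.19 (SE, adjusted p = 0.651). The model at the RefSeq position of MSRA (chromosome 14, 13335420 to 13778619) also covers exons of PRSS55, so its counts cannot be assigned to MSRA alone. It had 8.13, 6.44, 3.51 and 7.27 CPM in controls 1 to 4 and 5.84, 5.55, 4.98 and 6.12 CPM in banded 1 to 4, with banded values inside the control range and a log2 fold change of -0.17 ± 0.25 (SE, adjusted p = 0.722).

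SELENOP carries selenium in plasma and is a secreted antioxidant. SELENOP had 510.0, 505, 502 and 469.6 CPM in controls 1 to 4 and 535, 499.8, 305 and 371 CPM in banded 1 to 4. Controls were tightly grouped, banded 1 lay just above them, banded 2 among them, and banded 3 and 4 below them, for a log2 fold change of -0.22 ± 0.18 (SE, adjusted p = 0.509) and an interval of -0.61 to 0.18. SELENOW, a small muscle selenoprotein, had a control mean of 8.14 ± 3.08 CPM and a banded mean of 11.8 ± 4.19 CPM, a log2 fold change of 0.54 ± 0.35 (SE, adjusted p = 0.385), and its interval reached from -0.23 to 1.31.

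The oxidase side was represented by CYBA, the p22phox subunit shared by several NADPH oxidases, and NOX4, a catalytic subunit that makes hydrogen peroxide. CYBA had 14.8, 15.1, 17.7 and 15.6 CPM in controls 1 to 4 and 15.3, 22.2, 16.9 and 14.2 CPM in banded 1 to 4. Banded 2 was highest and banded 4 lowest of the 8, and banded 1 and 3 lay among the controls, with a log2 fold change of 0.12 ± 0.16 (adjusted p = 0.697). Summed macrophage markers were also highest in banded 2, at 1144 CPM against 409 to 646 CPM in controls, and their part was not tested. NOX4 (chromosome 9, 22624195 to 22776554) had 6.01, 4.73, 6.01 and 6.51 CPM in controls 1 to 4 and 7.42, 6.31, 12.3 and 5.53 CPM in banded 1 to 4. Banded 1 and 3 lay above all controls and banded 2 and 4 among them, and its log2 fold change came to 0.44 ± 0.25 (adjusted p = 0.321), or 0.14 without banded 3.

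By the place of their proteins, the 8 mitochondrial genes had a median log2 fold change of -0.06 (3 positive, 5 negative), and 18 nuclear genes of mitochondrial content that are not members also had -0.06, with 0 called. The 7 secreted or endoplasmic reticulum genes had a median of 0.08, or -0.03 with library size scaling alone. Banded 3 was the highest library for 11 of the 36 genes and the lowest for 9, against 20.0% and 20.8% of all genes tested. Control 2 was the lowest for 10 of the 36, against 10.2% of all genes. Banded 1 was the highest for 8, against 8.37%. Relative to the control mean, 10 members were over 0.5 higher on the log2 scale in banded 3, against 6, 3 and 4 in banded 1, 2 and 4. Over 0.5 lower were 5 members in banded 3, against 1, 2 and 2. Those 5 were GPX3 at -0.90, SELENOP at -0.70, GSTK1 at -0.68, CAT at -0.63 and NFE2L2 at -0.60. On the high side in banded 3, this difference was 2.96 for SRXN1, 1.23 for GLRX, 1.03 for NOX4 and 1.02 for TXN, the GLRX and TXN values being those of the models placed by position. Counts past 0.5 were not made over all genes tested, so they cannot be set against a general share for banded 3.

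Among other genes of the same pathways that are not members, 122 were listed, 112 matched and 99 were tested. Of these 5 were called higher and 2 lower, which is 7.07% and near the 6.97% of all genes. At an unadjusted p under 0.05, 20 were higher (20.2%) and 10 lower (10.1%), against 12.1% and 11.7% of all genes. The 99 genes had a median log2 fold change of 0.23, against 0.02 for all genes. Of the glutathione synthesis and recycling genes, 1 of 12 was higher and 0 lower. GCLM, the modifier subunit of the enzyme that limits glutathione synthesis, rose in all banded animals. GCLM had 9.04, 8.90, 9.22 and 10.7 CPM in controls 1 to 4 and 20.4, 18.2, 21.8 and 17.6 CPM in banded 1 to 4, a log2 fold change of 1.04 ± 0.14 (SE, adjusted p = 0.00171). GCLC, the catalytic subunit, did not pass, at 0.69 ± 0.20 (adjusted p = 0.0591), although its groups did not overlap. SLC3A2, the amino acid transporter subunit with the highest level per length of that list, had a log2 fold change of 0.50 ± 0.26 (SE, adjusted p = 0.279). Of 15 NADPH supply genes 0 were called (0 higher and 1 lower at an unadjusted p under 0.05), and mitochondrial IDH2, the highest per length, had a log2 fold change of 0.06 ± 0.15 (SE, adjusted p = 0.849).

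Among 18 other NRF2 target and regulator genes, 0 were higher and 1 lower. The 18 leave out GCLM (called higher) and GCLC (not called), NRF2 targets that were counted above with glutathione synthesis. ABCC1, an exporter of glutathione conjugates, had 23.8, 33.2, 31.7 and 32.7 CPM in controls 1 to 4 and 19.1, 19.5, 19.9 and 24.9 CPM in banded 1 to 4, a log2 fold change of -0.54 ± 0.15 (SE, adjusted p = 0.0485). It passed by little, and the call was lost in 10 of 18 alternative settings, among them without banded 1, 2 or 3 or control 2, 3 or 4 (adjusted p = 0.0728 to 0.141). FTL, ferritin light chain and the highest per length, had a log2 fold change of 0.30 ± 0.18 (SE, adjusted p = 0.344). HMOX1, heme oxygenase and a well known NRF2 target, had 7.86, 6.41, 6.72 and 9.02 CPM in controls 1 to 4 and 14.7, 21.7, 58.5 and 8.93 CPM in banded 1 to 4. Banded 1, 2 and 3 were above all controls and banded 4 was not, with a log2 fold change of 1.79 ± 0.55 (SE, adjusted p = 0.0979). Of 16 other oxidase and oxidant source genes, 0 were higher and 1 lower. MAOB, the mitochondrial monoamine oxidase that releases hydrogen peroxide, fell in all banded animals. MAOB had 33.8, 17.1, 25.5 and 26.8 CPM in controls 1 to 4 and 8.59, 5.26, 7.17 and 3.16 CPM in banded 1 to 4, a log2 fold change of -2.09 ± 0.30 (SE, adjusted p = 0.00376). POLDIP2, the highest per length there, had a log2 fold change of -0.17 ± 0.16 (SE, adjusted p = 0.565).

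Of 20 other selenoprotein and selenium handling genes, 2 were higher and 0 lower. SELENOM, of the endoplasmic reticulum, had 12.3, 13.0, 11.6 and 12.9 CPM in controls 1 to 4 and 20.1, 23.0, 18.6 and 19.6 CPM in banded 1 to 4, a log2 fold change of 0.71 ± 0.13 (SE, adjusted p = 0.00905). SELENOS, which acts in the export of misfolded proteins from there, had 18.2, 20.0, 17.0 and 28.2 CPM in controls 1 to 4 and 32.4, 27.2, 38.4 and 36.8 CPM in banded 1 to 4, a log2 fold change of 0.69 ± 0.18 (SE, adjusted p = 0.0401). Its call was lost in 7 of 18 alternative settings, among them without banded 1, 3 or 4 or control 1, 2 or 3 (adjusted p = 0.0630 to 0.127). GPX4, which reduces lipid peroxides and was the highest per length, had a log2 fold change of 0.24 ± 0.21 (SE, adjusted p = 0.525). Of 19 other thioredoxin fold and transferase genes, 2 were higher and 0 lower, with a median log2 fold change of 0.37. MGST3, a membrane transferase and the highest per length of that list, had 152, 119, 128 and 163 CPM in controls 1 to 4 and 281, 232, 305 and 245 CPM in banded 1 to 4, a log2 fold change of 0.92 ± 0.15 (SE, adjusted p = 0.00571). TXNDC17, a small thioredoxin-like protein, had 15.7, 14.2, 16.1 and 17.8 CPM in controls 1 to 4 and 21.9, 19.1, 26.2 and 25.3 CPM in banded 1 to 4, a log2 fold change of 0.54 ± 0.14 (SE, adjusted p = 0.0447). Its call was lost in 10 of 18 settings, among them without any 1 library other than banded 2 (adjusted p = 0.0532 to 0.136). GCLM, MAOB and MGST3 kept their calls in all 18.

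**Figure D5:**
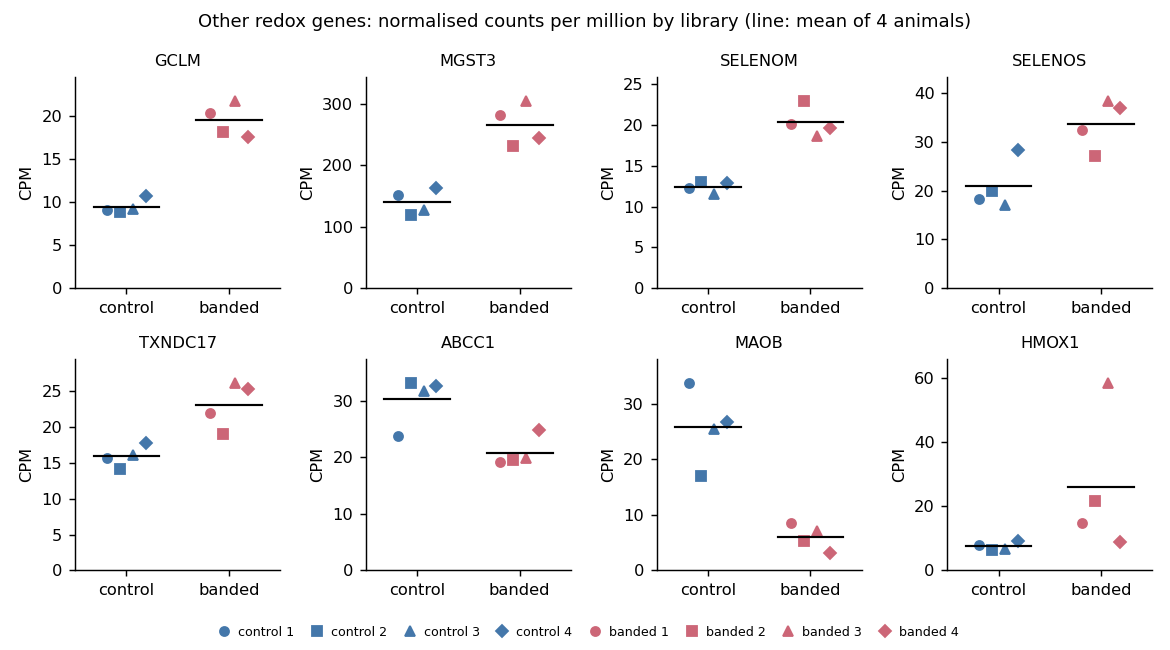
Normalised CPM (y axes, from 0) of 8 redox genes that are not members, in each control (blue) and banded (red) library, with a line at the mean of 4 animals. GCLM, MGST3, SELENOM and TXNDC17 are higher and MAOB lower in every banded animal than in any control, while HMOX1 reaches 58.5 CPM in banded 3.

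Markers of the tissue and of other cells stand beside these values. Summed cardiomyocyte markers were 29654 to 40324 CPM in controls and 39172 to 50755 CPM in banded animals, and MYL2, the ventricular myosin light chain, was called higher, with a log2 fold change of 0.91 ± 0.17 (adjusted p = 0.0113). Of the 8 cardiomyocyte markers tested, however, 4 had positive and 4 negative log2 fold changes, with a median of 0.03, and at an unadjusted p under 0.05, 3 were higher and 3 lower. Fibroblast markers summed to 9011 to 12339 and 7294 to 12886 CPM, with FBLN1 called higher at 0.69 ± 0.16 (adjusted p = 0.0248) and PDGFRA lower at -0.49 ± 0.13 (adjusted p = 0.048). Endothelial markers summed to 961 to 1147 and 976 to 1048 CPM, with EMCN called lower at -0.57 ± 0.12 (adjusted p = 0.0207). Macrophage markers summed to 409 to 646 CPM in controls and 605 to 1144 CPM in banded animals, with CD14 called higher at 1.08 ± 0.28 (adjusted p = 0.043). Of these 10 markers 9 had positive log2 fold changes, with a median of 0.50. At an unadjusted p under 0.05, 6 were higher and 0 lower. Smooth muscle and pericyte markers summed to 1039 to 1378 CPM in controls and 863 to 2405 CPM in banded animals, where banded 3 was highest. Log2 fold changes were negative for 7 of these 10 genes, with a median of -0.43, and at an unadjusted p under 0.05, 1 was higher and 4 lower. Lymphocyte markers summed to 21.0 to 25.7 and 16.2 to 29.2 CPM with CD3G at 0, and neutrophil markers to 2.38 to 2.78 and 2.01 to 3.09 CPM with MPO and ELANE at 0 in every library. Of all 72 markers tested, 3 were called higher and 2 lower, and the part of cell content in the redox genes' values was not tested.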

How the data were processed

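Gene counts were made by the authors with featureCounts 1.6.2, per the file headers (mapping quality of at least 10, strand setting 2) on Ensembl release 106 of Sscrofa11.1. Its command named 24 libraries, of which 8 were analysed here. Trimmomatic, HISAT2, Subread and DESeq2 are named in the submitters' processing notes, without versions. As deposited, the counts are whole and not normalised. A table deposited by the authors holds log2 fold changes (control over banded), a mean normalised signal, a Wald score, p-values, and the percent identity with human genes.

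Libraries were grouped by their labelled treatment, which gives no batch or pairing. Genes passing filterByExpr (minimum count 10, minimum total 15) were scaled by TMM and tested with edgeR 4.0.16 in R 4.3.3 (quasi-likelihood F test, robust, two-sided, Benjamini-Hochberg over 13697 genes, threshold 0.05), after the method was tested on simulated data. SE is the size of the log2 fold change over the square root of F. CPM uses TMM library sizes, and RPKM divides it by exon length. The members and all lists were chosen with earlier results of these data known. Values in every library are given for called members, for the highest RPKM in each role, and for NFE2L2, KEAP1, TXNIP, CYBA and NOX4. Those of SOD1, PRDX2, PRDX4, SRXN1, GPX1, GSTO1, TXNRD1, NQO1 and HMOX1, and the values of GCLC, were added after they were seen. For other lists, called genes and the highest RPKM are named. TXN, GLRX and MSRA were also placed by RefSeq position on the same build (at least 0.8 of the span). This and DESeq2 without banded 3 were chosen after seeing the data. Other alternatives were DESeq2 1.42.0, limma-voom 3.58.1 with quality weights, 1 surrogate variable (sva 3.50.0), other scalings and filters, no robust estimation, leaving out genes of the mitochondrial genome, and dropping each library in turn.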

Additional observations from a re-analysis of the deposited data

Results flagged for a closer look

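In 7 of 78 groups of 4 animals examined, 1 animal lay far from the other 3, by Dixon's ratio of gap to range at the 95% critical value. Chance gives about 1 in 20. SRXN1 was 31.3 CPM in banded 3, against 4.48 to 6.17 CPM in the other banded animals. PRDX5 was 19.3 CPM in banded 3, against 31.0 to 32.6 CPM, and SOD1 was 135 CPM in banded 2, against 161 to 167 CPM. Among controls, control 4 stood above the rest for PRDX6 (124 CPM against 88.8 to 91.2), GSTO1 (17.4 CPM against 12.4 to 13.2) and the TXN model placed by position (30.3 CPM against 22.6 to 23.4). GLRX2 was 3.42 CPM in control 2, against 5.96 to 6.11 CPM in the other controls.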

How the results depend on the processing

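No paired analysis was possible because the labels give the groups no shared replicate numbers. No member was called lower in any of 19 settings. One member was called higher in 3 of them: PRDX2 with limma-voom (adjusted p = 0.0493) and without control 4 (0.0475), and GSTO1 without banded 2 (0.0492), so the count was 0 to 1 when each library was left out. These counts take in the TXN model placed by position only under the main test. That model was called higher with DESeq2 (adjusted p = 0.0468) and limma-voom (0.0452). Over all genes, 475 were called higher and 479 lower. DESeq2 called 840 and 791, or 727 and 791 without banded 3, and scaling by library size alone called 303 and 508. Leaving out 1 library gave 201 to 499 higher and 198 to 476 lower, with 201 and 198 without control 1, 211 and 204 without control 2, and 208 and 201 without control 3. Scaling by library size alone took the median log2 fold change from 0.02 to -0.09 over all genes and from 0.10 to -0.00062 over the members, and leaving out each library gave the members 0.07 to 0.18.

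Several members near 0 changed sign, none of them called. GLRX3 was -0.08 with 1 surrogate variable, -0.08 in DESeq2 without banded 3 and -0.07 with library size alone. NFE2L2 was 0.03 with the surrogate variable, 0.06 in DESeq2 without banded 3 and 0.03 with limma-voom. SOD2 was 0.0021 with the surrogate variable and 0.03 in DESeq2 without banded 3. GPX3 was -0.09 with library size alone, and MSRB3 was -0.03 there and -0.0048 with limma-voom. When each library was left out, log2 fold changes spanned -0.03 to 0.20 for CYBA, -0.08 to 0.12 for GLRX3, -0.27 to 0.25 for GPX3, -0.01 to 0.16 for MSRB3, -0.19 to 0.06 for NFE2L2, -0.15 to 0.05 for PRDX3 and -0.19 to 0.03 for SOD2. The cause was not tested. ABCC1 (adjusted p up to 0.141), TXNDC17 (0.136), SELENOS (0.127) and SELENOM (0.0519, library size alone) lost their calls in some settings. With 4 animals a group, intervals for SRXN1, GPX1, GSTM3 and SELENOW reach past a 2-fold change, and those of GPX1, GSTM3 and SELENOW also include no change.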
